A study of Mus musculus with 4 samples.

Results

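MiR-155, miR-146 and miR-21 are miRNAs that activated lymphocytes raise and that regulatory T cells also hold at high levels. Their ratios between Foxp3-transduced and control vector-transduced mouse activated T cells were read from probes 1org-155, 1org-146 and 1org-21. The probes were picked by probe ID through a rule that uses no value, but with earlier results of these data known. They are 3 of the 178 probes of the table and 3 of its 171 miRNA probes, and each had a value on all 4 arrays. Foxp3 is the lineage-defining transcription factor of regulatory T cells, and every RNA came from T cells that were both activated and transduced, so the controls carry the vector and the activation too. RNA of the Foxp3-transduced cells and RNA of the vector-transduced cells were hybridised together to 2-colour arrays, with 2 arrays at 72 h and 2 at 96 h. On replicate 1 of each time point the Foxp3 RNA carried Cy5, and on replicate 2 it carried Cy3. The mouse strain and age, the T cell subset, the vector and the share of transduced cells are not given in these labels. In RNA of whole cultures, fewer cells of a type and less RNA per cell cannot be told apart. A ratio holds no level, so the T cell identity could not be set against the level of marker miRNAs.

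A miRNA is cut from a hairpin precursor and guides Argonaute to messenger RNAs that pair with its seed, bases 2 to 8 from the 5′ end. MiR-155 comes from the non-coding host gene Mir155hg (also called BIC), is induced through the antigen receptor and AP-1, and represses Socs1, an inhibitor of IL-2 signalling; Foxp3 is known to bind its locus. MiR-146a is induced by NF-kB and represses the NF-kB adaptors Traf6 and Irak1. MiR-21 is induced by AP-1 and STAT3 and represses Pdcd4, a brake on growth. The sequences below, from RefSeq on GRCm38.p6, show that the members share no seed, and that miR-146a and miR-146b, either of which the ID 1org-146 could stand for, are nearly identical. Capitals mark the seed.
miR-155-5p: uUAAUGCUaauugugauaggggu
miR-146a-5p: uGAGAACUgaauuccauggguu
miR-146b-5p: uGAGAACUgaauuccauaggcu
miR-21a-5p: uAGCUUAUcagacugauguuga
The forms shown are the arms usually meant by these names. The probe IDs do not state an arm.

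MiR-155-5p lies at chr16:84714143-84714165 on the plus strand, inside Mir155hg. MiR-146a-5p lies at chr11:43374435-43374456 on the minus strand, where no other gene of the RefSeq table overlaps it. MiR-146b-5p lies at chr19:46342790-46342811 on the plus strand and overlaps Gm36493. MiR-21a-5p lies at chr11:86584120-86584141 on the minus strand, within the span of Vmp1. The platform annotation listed 1org-155 as Mir155 and 1org-21 as Mir21a (symbols updated through the gene ID). It did not list 1org-146, so that probe is named by its ID alone. The sequences of miR-146a-5p and miR-146b-5p differ at 2 of 22 bases, G18A and U21C counted from the 5′ end of miR-146a-5p, and share a run of 17 bases. Signal of the pair may not be separable on this probe. No other mature miRNA of the table had the seed of miR-155-5p, and 1 other, miR-21c, had that of miR-21a-5p. Between miR-155-5p, miR-146a-5p and miR-21a-5p the longest shared run was 5 bases.

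The ratios had an unsettled direction. Each deposited value was read as the log2 ratio of Cy5 over Cy3, and arrays that had Foxp3 in Cy3 were turned in sign, so that a value above 0 means likely more of the miRNA with Foxp3. The 2 arrays of a time point correlated at r = 0.66 (72 h) and r = -0.12 (96 h) across the 171 miRNA probes before turning, which does not settle the reading. The other reading, values already turned to Foxp3 over control, is given beside the results on the members and the list counts. The arrays also shared no centre, whose deposited miRNA medians were -0.59 (72 h) and 1.27 (96 h) for replicate 1 and -0.83 (72 h) and 0.02 (96 h) for replicate 2, so values centred on those medians or on the U6 and tRNA control probes are given too. Whether 72 h and 96 h were separate cultures is not in the labels. The p-values of the main test rest on the spread between these 2 time points, pooled over the miRNA probes, which may be technical. At 96 h all 19 measured markers of other cell types (25 listed; myeloid, erythroid, epithelial, muscle, neural, liver, stromal or endothelial) had means above 0, from 0.56 to 2.33, where the median of all miRNA probes was 0.80. The means of 1org-200a, 1org-200b, 2org-200c, 1org-205, 1org-206 and 1org-124a averaged arrays of opposite sign, such as 4.67 and -3.49 for 1org-200a. The others were above 0 on both 96 h arrays, as were 47.4% of all miRNA probes. At 72 h none of the 19 lay on 1 side on both arrays. At 72 h 13 of the 19 were above 0, from -0.32 to 0.55, and after centring on the miRNA medians 8 at 72 h and 17 at 96 h. Under the other reading, 4 of the 19 were above 0 at 72 h, from -1.74 to 2.40, and 17 at 96 h. Of 4 measured T cell markers, 3 lay below 0 on both arrays at 72 h (15.2% of all miRNA probes did) and 2 at 96 h (8.77%), with means from -0.83 to 0.63 and from -0.70 to 0.47. With the values taken as already turned, 1 lay below 0 on both arrays at 72 h (63.2% of all) and none at 96 h (0.585%). All of these T cell markers but 1org-150 are numbered for miR-142 and differed, with 1org-142-s at 0.63 and 1org-142-as at -0.51 at 72 h. Probe 1org-150 is also in the list reduced by activation used below. The 4 are therefore not independent markers of T cells. Their part in the results below was not tested.

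At 72 h all 3 members lay on the likely higher side on both arrays. MiR-155 had log2 ratios of 1.21 with Foxp3 in Cy5 and 0.71 with Foxp3 in Cy3, a mean of 0.96 ± 0.35 (SD of the 2 arrays) or 1.94-fold. MiR-146 had 0.27 and 1.06, a mean of 0.67 ± 0.56 or 1.59-fold. MiR-21 had 0.44 and 0.21, a mean of 0.33 ± 0.16 or 1.26-fold. Of the 3, miR-155 was thus highest where Foxp3 carried Cy5, and miR-146 on the dye swap. Of all 171 miRNA probes, 12.9% lay above 0 on both 72 h arrays. A probe was counted past 1.5-fold where its mean was of that size and its arrays had 1 sign. MiR-155 and miR-146 met this, as did 2.34% of all probes on the likely higher side, and miR-21 did not; on the single array with Foxp3 in Cy5 miR-146 lay below 1.5-fold. By their mean at 72 h miR-155 ranked second-highest and miR-146 held rank 4 of 171, with miR-21 at rank 25; in the other reading the ranks were 20, 69 and 27.

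The 72 h values rested on how each array was centred. After centring on the miRNA medians, miR-155 had 1.80 and -0.12, miR-21 had 1.03 and -0.61, and miR-146 had 0.86 and 0.24. MiR-146 alone of the members then kept its sign on both arrays, with a mean of 0.55 (8.19% of all probes lay above 0 on both), and none passed 1.5-fold, where 1.17% of all probes did on the likely higher side. Centred on U6 and tRNA, miR-155 had 1.48 and 0.37 and miR-146 had 0.54 and 0.72, both past 1.5-fold as were 2.92% of all probes, while miR-21 had 0.71 and -0.13. In the other reading the 72 h means were 0.25 for miR-155, -0.40 for miR-146 and 0.12 for miR-21, with opposite signs on the 2 arrays for each of them. The arrays of a time point were taken to share their RNAs and to make 1 replicate, so no test was made within it. The source names do not identify the RNA preparations.

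**Figure D1:**
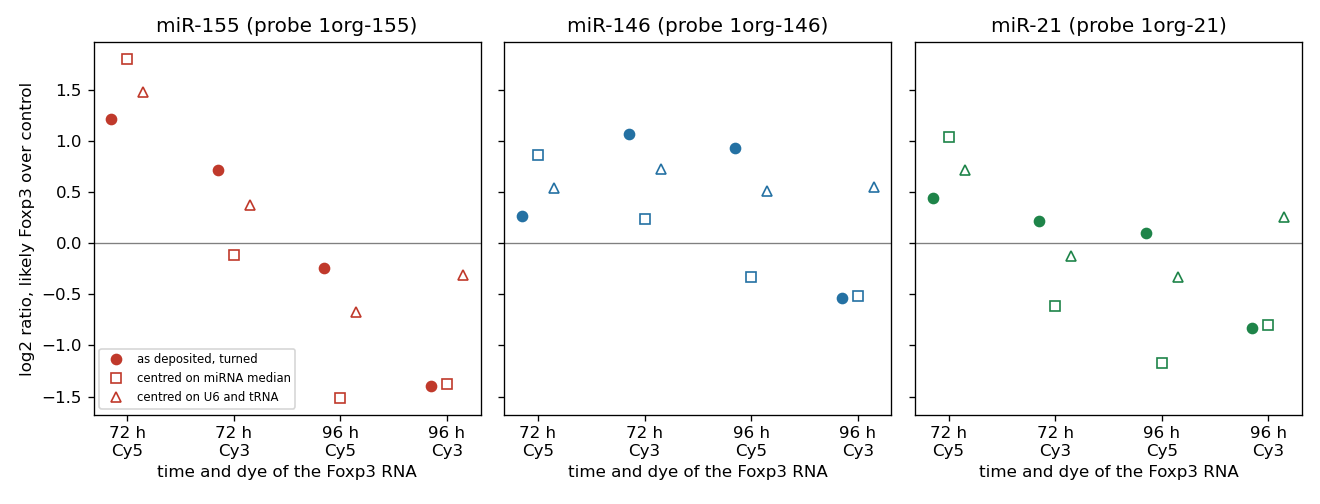
Log2 ratio, likely Foxp3 over control, of the 3 members (panels) on the 4 arrays, named by time and by the dye of the Foxp3 RNA; filled circles are the deposited values after turning, squares the values centred on each array's miRNA median and triangles those centred on U6 and tRNA. Every filled circle at 72 h lies above 0, and at 96 h the miR-155 values are -0.24 or lower in all 3 scalings.

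At 96 h the members no longer lay on one side. MiR-155 had -0.24 with Foxp3 in Cy5 and -1.40 with Foxp3 in Cy3, a mean of -0.82 ± 0.81 (SD of the 2 arrays) or 1.77-fold lower. MiR-21 had 0.10 and -0.82, a mean of -0.36 ± 0.65. MiR-146 had 0.93 and -0.54, a mean of 0.20 ± 1.04. MiR-155 was the 1 member below 0 on both arrays, as were 8.77% of all miRNA probes, and it passed 1.5-fold, as did 5.26% on the likely lower side. On the array with Foxp3 in Cy3 all 3 members were below 0. The median of all miRNA probes on that array was itself -0.02 after turning, so lying below 0 there does not set the members apart.

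After centring on the miRNA medians, which removes the high centre of the 96 h array with Foxp3 in Cy5, the arrays of each member came close together. MiR-155 then had -1.51 and -1.38, miR-21 -1.17 and -0.80, and miR-146 -0.33 and -0.52, so that all 3 were likely lower on both arrays, as were 33.9% of all probes. MiR-155 and miR-21 passed 1.5-fold in that scaling, but so did 25.1% of all probes on the likely lower side. Centred on U6 and tRNA, miR-155 stayed below 0 on both arrays (-0.67 and -0.31, not past 1.5-fold in the mean; 9.94% of all probes were below 0 on both), miR-21 had -0.33 and 0.26, and miR-146 was above 0, at 0.51 and 0.55. The direction of miR-146 at 96 h thus differed between the scalings. Taken as already turned, the 96 h means were 0.58 for miR-155, 0.74 for miR-146 and 0.46 for miR-21. There miR-146 and miR-21 were above 0 on both arrays, as were 43.3% of all probes, and only miR-146 passed 1.5-fold, as did 33.9%.

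Ranks among the 171 miRNA probes do not move with centring. With rank 1 the highest turned ratio, miR-155 ranked 6 and 99 at 72 h and 163 and 157 at 96 h (Foxp3 in Cy5, then in Cy3). MiR-21 ranked 13 and 116.5 (a tie) at 72 h and 150 and 130 at 96 h. MiR-146 ranked 21 and 62 at 72 h and 112 and 113 at 96 h. All 3 thus ranked lower on each 96 h array than on either 72 h array. The share of all probes that did so was not counted, so this only describes the members. Centred on the miRNA medians, 10.5% of all probes were past 1.5-fold lower at 96 h with no overlap. At 96 h, 6 of 171 probes, miR-155 among them, ranked 157 or lower on both arrays. At 72 h, 5 of 171, miR-146 among them, ranked 62 or higher on both. These cut-offs are the members' own ranks, and the same count was larger for the others. At 72 h, 33 of 171 probes ranked 99 or higher on both arrays (the cut-off of miR-155) and 64 ranked 116.5 or higher (miR-21). At 96 h, 23 ranked 130 or lower on both (miR-21) and 39 ranked 112 or lower (miR-146). Under the other reading, ranked on the values as deposited, miR-155 stood at 6 and 73 at 72 h and at 163 and 15 at 96 h, miR-146 at 21 and 110 and at 112 and 59, and miR-21 at 13 and 55.5 and at 150 and 42. The order between time points did not hold there, nor did the places of miR-155 at 96 h and of miR-146 at 72 h.

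**Figure D2:**
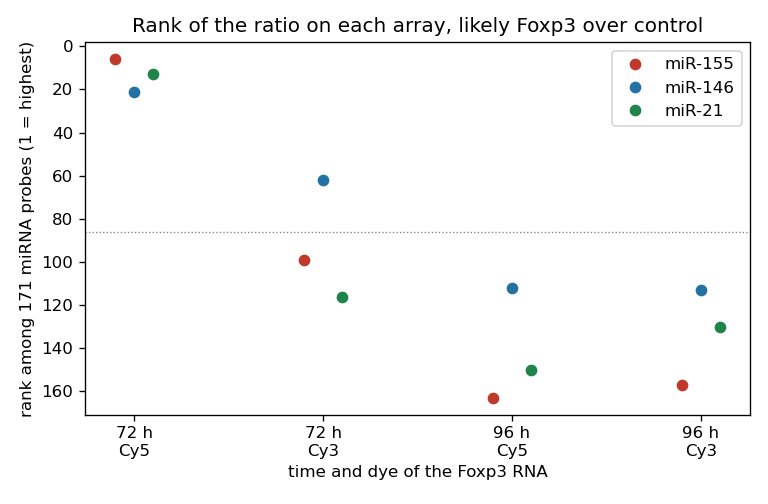
Rank of each member's log2 ratio, likely Foxp3 over control, among the 171 miRNA probes on each of the 4 arrays (rank 1 at the top is the highest; the dotted line is the middle rank). All 3 members rank lower on both 96 h arrays than on either 72 h array, and miR-155 spans the widest range, from 6 to 163. The share of all probes with such an order was not counted.

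A dye swap separates what follows the RNA from what follows the dye. Under the Cy5 over Cy3 reading, the sample part is the mean of the turned values of a time point and the dye part the mean of its deposited values. At 72 h the sample part of miR-155 was 0.96 against a dye part of 0.25, that of miR-146 was 0.67 against -0.40, and that of miR-21 was 0.33 against 0.12. The sample part was the larger for each member, as it was for 48 of 171 probes (28.1%). The sample part is larger exactly where both turned arrays have 1 sign. Which part is larger therefore restates the signs given above and is not a separate check. At 96 h it was larger for miR-155 alone (-0.82 against 0.58). The dye part was larger for miR-146 (0.74 against a sample part of 0.20) and for miR-21 (0.46 against -0.36). The sample part was the larger for 96 of 171 probes (56.1%) at 96 h. These parts include the offset of each array. After centring on the miRNA medians, the 72 h dye part was larger in size for miR-155 (0.96 against 0.84) and miR-21 (0.82 against 0.21). For miR-146 it was smaller there (0.31 against 0.55). At 96 h the sample part was then the larger for all 3, at -1.44 against 0.07 for miR-155, -0.425 against 0.09 for miR-146 and -0.99 against 0.18 for miR-21. In that scaling 33.9% of all probes lay above 0 and 33.9% below 0 on both 96 h arrays. For all of these probes the sample part is the larger too.

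**Figure D3:**
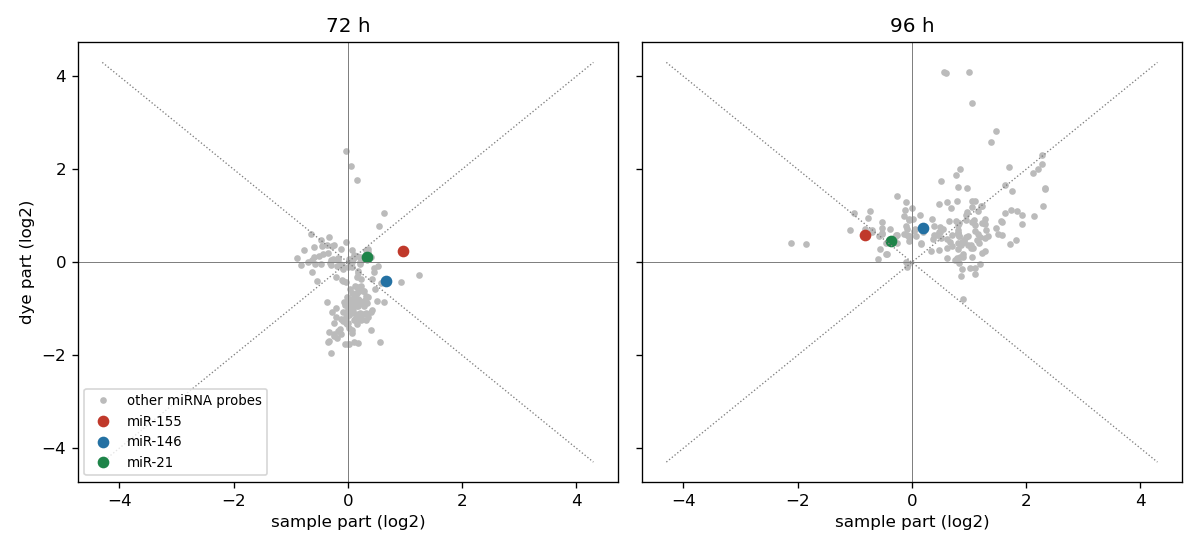
Sample part (horizontal) and dye part (vertical) of the log2 ratios at 72 h and 96 h for the 171 miRNA probes, with the 3 members coloured; on the dotted diagonals both parts are of equal size. At 72 h most probes lie below the horizontal axis (median dye part -0.67) while miR-155, at a sample part of 0.96, lies to the right of most other probes. At 96 h it lies to their left, at -0.82.

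Over both time points no member passed the test against 0. MiR-146 had the highest mean, 0.43 ± 0.33 (SD, n = 2 time points), with limma's standard error of 0.48 and an adjusted p of 0.611. MiR-155 had a mean of 0.07 ± 1.26 (SD, n = 2; limma's adjusted p = 0.937), since its time points lay on opposite sides. MiR-21 had -0.02 ± 0.49 (SD, n = 2; limma's adjusted p = 0.982). Limma's standard error was 0.48 for each of the 3, whatever its own SD, as the spread was pooled over the 171 probes. Limma's intercept fit called 0.0% of the 171 probes at an adjusted p of 0.05, while 16 had an unadjusted p under 0.05. Without 72 h replicate 1 it called 94 probes and without 96 h replicate 1 it called 3, none of them a member. MiR-146 was above 0 on 3 of 4 arrays, and after centring on U6 and tRNA on all 4, between 0.51 and 0.72, as were 7.6% of all probes. That gave it a mean of 0.58 ± 0.07 (SD, n = 2; limma's adjusted p = 0.626), whereas centring on the miRNA medians gave 0.06 ± 0.69 (SD, n = 2; limma's adjusted p = 0.968). In the other reading the means were 0.41 for miR-155, 0.17 for miR-146 and 0.29 for miR-21, each with limma's adjusted p of 0.998.

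The members were then compared between the time points. MiR-155 went from 0.96 at 72 h to -0.82 at 96 h, a log2 difference of -1.78 or 3.43-fold lower, and its 72 h arrays (0.71 and 1.21) lay wholly above its 96 h arrays (-1.40 and -0.24). Without centring it was the 1 probe of 171 (0.585%) above 0 on both 72 h arrays and below 0 on both 96 h arrays. These sides of miR-155 held with centring on U6 and tRNA. They did not with centring on the miRNA medians, where its 72 h arrays were 1.80 and -0.12. MiR-21 went from 0.33 to -0.36, a difference of -0.69 or 1.62-fold lower, again with no overlap of the arrays. MiR-155 and miR-21 passed 1.5-fold with no overlap, as did 2.34% of all probes in that direction. The difference of miR-146 was -0.47, and its arrays overlapped. Limma's time term over the 4 arrays, which counts the dye swaps as samples, had an adjusted p of 0.99 for each member and called no probe, nor had any an unadjusted p under 0.05.

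Centred on the miRNA medians, all 3 members were lower at 96 h with no overlap, by -2.28 for miR-155, -1.20 for miR-21 and -0.97 for miR-146, as were 10.5% of all probes in that direction. Centred on U6 and tRNA, miR-155 alone passed, at -1.42, where 1.75% of all probes passed in that direction. Read the other way, the differences turned to the higher side, 0.33 for miR-155, 0.34 for miR-21 and 1.13 for miR-146. Only miR-146 then passed without overlap, as did 67.8% of all probes on the higher side.

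**Figure D4:**
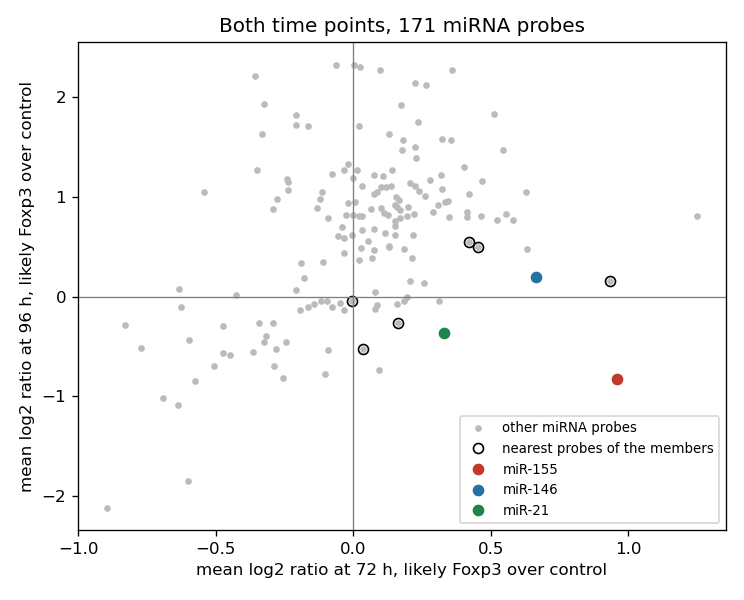
Mean log2 ratio at 72 h (horizontal) and at 96 h (vertical), likely Foxp3 over control, of the 171 miRNA probes; each point is the mean of 2 arrays of exchanged dyes, and open circles are the probes nearest to the members. MiR-155, at 0.96 and -0.82, lies at the lower right, apart from the other probes.

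Differences between members within an array do not depend on centring. MiR-155 exceeded miR-21 by 0.76 and 0.50 on the 72 h arrays and lay 0.34 and 0.57 below it on the 96 h arrays (differences of -0.34 and -0.57), so in this reading the pair had one order on both 72 h arrays and the opposite order on both 96 h arrays. Against miR-146, miR-155 differed by 0.94 and -0.35 at 72 h, which leaves no settled order, and by -1.18 and -0.86 at 96 h. MiR-146 minus miR-21 was -0.18 and 0.85 at 72 h and 0.84 and 0.29 at 96 h, with a mean of 0.45 ± 0.16 (SD, n = 2). Of the 3 pairs none was tested. Taken as already turned, the mean differences over both time points were 0.24 for miR-155 minus miR-146, 0.12 for miR-155 minus miR-21 and -0.12 for miR-146 minus miR-21.

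The probes most like each member were taken by Euclidean distance over the 4 arrays, which neither centring nor turning changes, and are a description over 4 arrays. Nearest to miR-155 was miR-21 (distance 1.13), followed by 1org-29a (1.40) and 1org-29b (1.42), where the median distance to the 170 other miRNA probes was 3.15. Nearest to miR-21 were 1org-29a (0.28), 1org-29b (0.54) and 2org-107 (0.72), with a median of 2.41. MiR-29a and miR-29b repress extracellular matrix genes and, in T cells, Ifng and T-bet. Probe 1org-29a had means of 0.16 at 72 h and -0.27 at 96 h, and 1org-29b had 0.03 and -0.52, both above 0 at 72 h and below 0 at 96 h like miR-21. Nearest to miR-146 were 1org-22 (0.59), 1org-201 (0.61) and 1org-24 (0.66), with a median of 1.87. Probe 1org-22 had 0.93 at 72 h and 0.16 at 96 h, and 1org-24, for a miRNA of the miR-23/27/24 clusters, had 0.45 and 0.50. MiR-155 was only the 32nd nearest probe to miR-21 and the 76th nearest to miR-146. The sequences of 4 of the miRNAs that the nearest probes are numbered for, with the seed in capitals, are shown because none of these 4 shares a seed with a member; those of 2org-107 and 1org-201 were not compared.
miR-29a-3p: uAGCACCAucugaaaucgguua
miR-29b-3p: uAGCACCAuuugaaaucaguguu
miR-22-3p: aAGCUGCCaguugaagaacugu
miR-24-3p: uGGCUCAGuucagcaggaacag
MiR-29a-3p and miR-29b-3p share their seed with each other and differ at 4 positions, C10U, G18A, U21G and A22U counted from the 5′ end of miR-29a-3p. Against miR-21a-5p their longest shared runs were 4 and 5 bases.

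The other miRNAs of the same settings were counted by lists matched on probe IDs. Limma over both time points called none of their members, as it called none of all probes; after centring on the miRNA medians its 2 calls, 2org-221 and 2org-222, were both of the activation-induced list. Shares of all miRNA probes on 1 side of 0 on both arrays were 12.9% above and 15.2% below at 72 h, and 47.4% above and 8.77% below at 96 h. Past 1.5-fold were 2.34% higher and 5.26% lower at 72 h, and 46.2% higher and 5.26% lower at 96 h. Counts of the lists at 96 h depended on the scaling and on the reading, so each is given with them. After centring on the miRNA medians 33.9% of all probes lay above 0 and 33.9% below 0 on both 96 h arrays, and 17.5% passed 1.5-fold higher and 25.1% lower. In the other reading 8.19% lay above 0 and 63.2% below 0 at 72 h, and 43.3% above and 0.585% below at 96 h.

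Of 3 others induced by NF-kB or AP-1, 1org-9, 1org-132 and 2org-147, none lay on one side on both 72 h arrays. Of all miRNA probes 12.9% lay above 0 and 15.2% below 0 on both. Their median was -0.09 against 0.07 for all miRNA probes. At 96 h 1org-9 (1.27) and 2org-147 (0.67) were above 0 on both arrays (47.4% of all probes) and past 1.5-fold (46.2% of all). Probe 1org-132, for a CREB-induced miRNA, was at -0.53. After centring on the miRNA medians 1 was above 0 and 1 below 0 on both 96 h arrays. With the values taken as already turned, all 3 lay below 0 on both 72 h arrays and 1 above 0 on both 96 h arrays.

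Of 15 others induced by T cell activation, 4 lay above 0 and 5 below 0 on both arrays at 72 h (12.9% and 15.2% of all miRNA probes), with a median of -0.09. At 96 h 4 and 5 did again (47.4% and 8.77% of all), with a median of -0.45 against 0.80 for all miRNA probes. Past 1.5-fold were 1 higher and 4 lower at 72 h (2.34% and 5.26% of all), and 4 higher and 4 lower at 96 h (46.2% and 5.26% of all). The highest was 1org-31 at 72 h (1.25) and 1org-182 at 96 h (0.90), and the lowest at both was 2org-222 (-0.90 and -2.12). After centring on the miRNA medians 2 were above 0 and 10 below 0 on both 96 h arrays, with 0 past 1.5-fold higher and 9 lower. Read the other way, 2 were above 0 and 4 below 0 on both arrays at 72 h, and 6 and 0 at 96 h. The highest was then 1org-20 at 72 h (0.60) and 1org-18 at 96 h (1.10), and the lowest 1org-96 (-0.93) and 1org-182 (0.18).

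Of 20 miRNAs reduced by activation, 2 lay above 0 and 9 below 0 on both arrays at 72 h (12.9% and 15.2% of all miRNA probes). At 96 h 4 and 1 did (47.4% and 8.77% of all). Past 1.5-fold were 4 lower at 72 h (5.26% of all) and 4 higher at 96 h (46.2% of all). Their lowest at 72 h was 1org-150 (-0.83), a miRNA of resting lymphocytes, and their highest at 96 h was 1org-26b (1.05). Centring on the miRNA medians turned the 96 h split to 1 above 0 and 14 below 0 on both arrays, with 0 past 1.5-fold higher and 11 lower. In the other reading 1 lay above 0 and 7 below 0 on both arrays at 72 h, and 15 and 0 at 96 h, with 1org-30e lowest at 72 h (-1.25) and 1org-7f highest at 96 h (1.42).

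Of 8 others held to be high in regulatory T cells, 4 lay above 0 and none below 0 on both arrays at 72 h. Of all miRNA probes 12.9% and 15.2% did. Their median was 0.20 against 0.07 for all probes, and 1 passed 1.5-fold (2.34% of all higher), 1org-22 at 0.93. At 96 h 2 were above 0 and 1 below 0 on both arrays (47.4% and 8.77% of all), with a median of 0.06 against 0.80. The highest at 96 h was 2org-223 (1.83), a myeloid marker. After centring on the miRNA medians 1 lay above 0 and 1 below 0 on both arrays at 72 h, and 2 and 5 at 96 h, whereas centring on U6 and tRNA gave 6 and 0 at 96 h, where 73.1% of all probes lay above 0. Under the other reading, 1 lay above 0 and 3 below 0 on both arrays at 72 h, and 5 and 0 at 96 h, with 1org-23b highest at both time points (0.45 and 1.00). The 72 h medians in that reading were -0.81 for the NF-kB or AP-1 list, 0.01 for activation-induced, -0.06 for activation-reduced and -0.16 for regulatory T cell miRNAs, against -0.67 for all probes, and the 96 h medians were 0.63, 0.63, 0.59 and 0.61, against 0.65.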

How the data were processed

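The values are those of the authors' deposited value table, 1 log2 ratio of the channels per probe and array, with no missing value. Log base, scanner, background correction, normalization, centring and direction are not given in the sources used here; base 2 and Cy5 over Cy3 were assumed, the latter because Cy5 is channel 2 on every array per the labels. The number of arrays limits the precision. The 7 control RNA probes were left out of tests. Both arrays of a time point were taken to share their RNAs, which the source names do not state, and were averaged, so n = 2 time points. The main test was limma 3.58.1 (R 4.3.3), an intercept-only fit with empirical Bayes over 171 miRNA probes and Benjamini-Hochberg adjustment (threshold 0.05, 1 residual degree of freedom), tested on simulated data. The simulated ratios were far larger than those of the members, so the power for ratios of their size was not tested. Counts past 1.5-fold needed that mean and 1 sign on both arrays. Alternatives were centring, scaling, the other reading, natural logs, a 2-fold threshold, each array left out, a dye term and other variance models. Named probes were the 3 members, the 3 nearest probes of each, and the highest or lowest probes of lists matched by probe ID; the NF-kB or AP-1 list, 3 probes besides the members, is named in full. Members and lists were chosen with earlier results of these data known. Sequences and gene spans are from RefSeq tables of GRCm38.p6.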

Additional observations from a re-analysis of the deposited data

Results flagged for a closer look

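MiR-155 stood on opposite sides at the 2 time points, above 0 on both arrays at 72 h and below 0 on both at 96 h, a log2 difference of -1.78 (96 h minus 72 h). This holds for the uncentred values. Centred on the miRNA medians, miR-155 had 1.80 and -0.12 on the 72 h arrays and so lay on no single side there. The difference between dye-swap pairs could not be tested with a replicate of its own, and limma's time term over the 4 arrays did not pass (adjusted p = 0.99).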

How the results depend on the processing

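Read as already turned, 4 called values reversed: miR-146 at 72 h became -0.40, miR-155 at 96 h 0.58, and the 96 h minus 72 h differences of miR-155 and miR-21 became 0.33 and 0.34. The called value of miR-155 at 72 h kept its sign. That reading also moved miR-155 and miR-21 at 72 h to 0.25 and 0.12, miR-21 at 96 h to 0.46 and the time difference of miR-146 to 1.13. Limma's count of 0 probes became 2 with centring on the miRNA medians and 3 in the other reading, and ran from 0 to 94 with single arrays left out. The members past 1.5-fold at 72 h (2) became 0 with centring on the miRNA medians, in the other reading or at 2-fold, 1 with centring and scaling, and 1 to 2 with an array left out. Those at 96 h (1) became 2 with centring on the miRNA medians, with or without scaling, 0 with U6 and tRNA or at 2-fold, and 1 to 2 with an array left out. Those that differed between time points (2) became 1 with U6 and tRNA, in the other reading or at 2-fold, 1 to 3 with an array left out, and 0 by limma's time term, with or without the replicate block. In the other reading the 1 was miR-146, on the higher side at 96 h, and neither miR-155 nor miR-21 passed. The time difference of miR-21 moved to -1.20 with centring on the miRNA medians and -1.17 with scaling too. Natural logs would put miR-155 at 1.38 at 72 h and its time difference at -2.57. With the replicate number (dye) as a block over the 4 arrays, the mean of miR-146 was 0.43 with limma's adjusted p = 0.80, and 0 probes were called. The causes of these changes were not tested.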
